A study of Lupinus albus with 12 samples.

Results

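The galactolipid and sulfolipid synthases of white lupin (Lupinus albus) were followed through roots and leaves grown with sufficient or deficient phosphorus. Sequences were taken as members when the symbols in the deposited annotation, which name the best protein hit, included MGD1, MGD2, MGD3, MGDA, MGDC, DGD1, DGD2, SQD1 or SQD2. This gave 68 of the 125535 sequences in the expression table, and 67 of them were among the 87081 sequences tested, which had a value of at least 1 in at least 3 of the 12 libraries. The tested members comprised 8 sequences of MGD1, 11 of MGD2, 16 of DGD1, 11 of DGD2, 2 of SQD1 and 19 of SQD2, and no sequence carried MGD3 or MGDC. The sequences are assembled transcripts, so several can be alleles, splice forms or fragments of 1 gene that share reads, and they were not treated as replicates. The 1 member below the filter was LAGI01_51444, an MGD1 sequence, at 0.8, 2.3 and 1.1 in sufficient roots and at 0.7 or less in every other library.

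Plant thylakoid membranes are built mainly from galactolipids rather than phospholipids. In Arabidopsis, MGD1 is the main enzyme adding a galactose to diacylglycerol in the inner plastid envelope, and DGD1 adds the next galactose. MGD2 and MGD3 in the outer envelope, together with DGD2, form a second route in Arabidopsis that is known for making galactolipid which takes the place of phospholipid outside the plastid when phosphate is short. SQD1 makes the activated sulfosugar UDP-sulfoquinovose, and SQD2 transfers it to diacylglycerol to give the sulfolipid of plastid membranes, an acidic lipid that contains no phosphorus.

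Plants of the variety Ultra were kept in a growth chamber and harvested 14 days after emergence. The sufficient supply contained calcium phosphate at 1 mM, which calcium sulfate at 1 mM replaced in the deficient supply, with 3 biological replicates of roots and 3 of leaves at each supply. The labels call the deficient root tissue proteoid roots, the clusters of short rootlets that white lupin forms when phosphorus is scarce, and the sufficient tissue roots, so root type and supply cannot be told apart in the root comparison. In these bulk tissue samples, more cells of a kind and more RNA per cell cannot be told apart either.

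Levels are given in RPKM, a read number corrected for the length of the sequence and the size of the library, which is the unit the deposited values were taken to have. Photosynthetic marker sequences (48 tested) summed to 76.4 to 118 RPKM in the root libraries and to 12200 to 53200 RPKM in the leaf libraries. The 48 root marker sequences summed to 195 to 257 RPKM in roots and 40.1 to 100 RPKM in leaves. Most of these root markers did not differ between tissues at sufficient phosphorus (limma adjusted p below 0.05). Of the 48, 14 were higher in roots and 1 lower, against 24.1% of all sequences higher. Deficient leaf replicate 3 stood apart: its 20 most abundant sequences held 70.91% of all RPKM, against 4.77% to 17.98% in the other 11 libraries, and the median tested sequence was at 0.9 RPKM against 2.1 to 2.7. Of the 67 members, 57 had their lowest deficient leaf value in that library. Leaf medians per gene are therefore given also without it and after median-of-ratios scaling, which sets the libraries to a common median ratio. Morning clock genes (LHY and CCA1) minus evening ones (TOC1, GI and APRR5) came to 3.05, 1.97 and 1.45 on the log2 scale in deficient leaves and to 1.38, -2.37 and -2.28 in sufficient leaves. In roots this clock difference was 0.68, -0.84 and -1.11 when deficient and -0.38, -2.21 and -2.37 when sufficient. Its part in the results was not tested beyond a fit that held it as a covariate.

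The synthases spanned a wide range of levels per length. Mean RPKM over the 12 libraries ran from 0.983 to 32.5 with a median of 2.91, and 18 of the 67 members reached 5. In this mean both SQD1 sequences, at 17.3 and 28.9, lay above every galactolipid synthase sequence, and the SQD2 sequences spanned 2.23 to 32.5. The order differed in roots alone. There the MGD2 sequence LAGI01_59558 averaged 8.97 RPKM when sufficient and 23.8 when deficient, against 7.9 and 9.17 for LAGI01_23898 of SQD1. MGD1 sequences lay at 1.08 to 2.99, DGD1 at 0.983 to 3.69, DGD2 at 0.983 to 5.29 and MGD2 at 1.93 to 11. The SQD2 range overlapped that of every other gene, and so did the ranges of the 4 galactolipid genes among themselves.

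**Figure D1:**
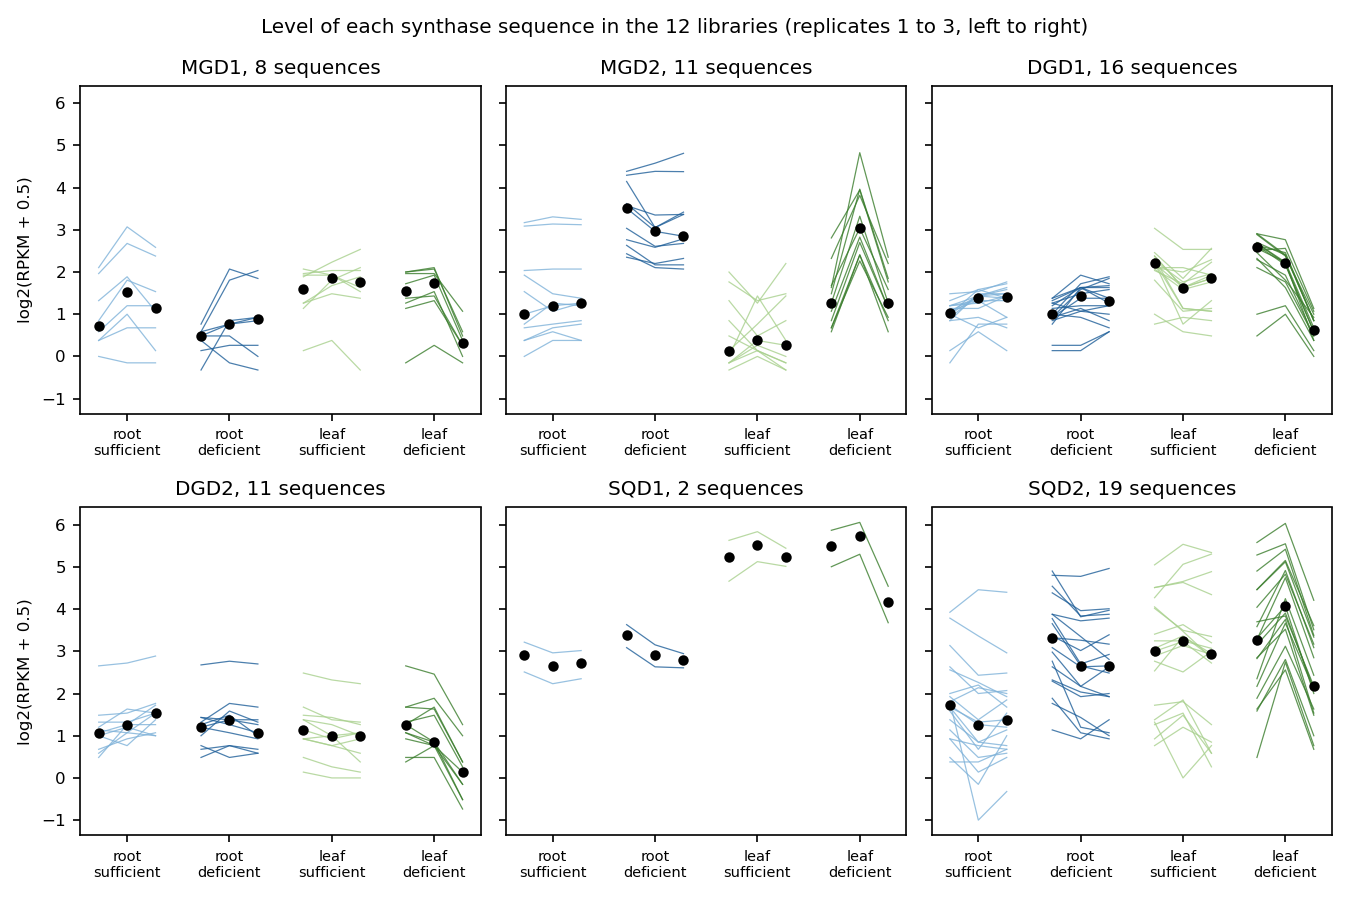
Level of each tested synthase sequence on the log2(RPKM + 0.5) scale (vertical axis) in the 12 libraries (horizontal axis, replicates 1 to 3 from left to right within a group), with 1 line per sequence and black dots for the median of a gene. The MGD2 lines lie higher in deficient than in sufficient roots, the SQD1 lines lie higher in leaves than in roots, and nearly all lines dip in deficient leaf replicate 3.

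In phosphorus-deficient roots, the MGD2 and SQD2 sequences were higher than in sufficient roots, while the medians of the DGD1 and DGD2 sequences were near 0 change. A single member, the MGD2 sequence LAGI01_25059, rose past the threshold of the test (limma across all tested sequences, adjusted p below 0.05). Among all tested sequences 0.279% were called in this comparison. LAGI01_25059 was at 0.5, 0.8 and 0.8 RPKM in sufficient roots and at 17.2, 7.8 and 10.2 RPKM in deficient roots. Every deficient library was far above every sufficient one. The mean went from 0.70 ± 0.17 to 11.73 ± 4.88 RPKM (SD, n = 3), a log2 fold change of 3.29 ± 0.619 (SE) on the log2(RPKM + 0.5) scale, with a limma adjusted p of 0.0284. The call was lost when any 1 of the 6 root libraries was left out (adjusted p 0.0576 to 0.117), with the change then between 2.98 and 3.53, and without deficient leaf replicate 3 its adjusted p was 0.0995.

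The other MGD2 sequences shared the direction without passing the adjusted threshold. All 11 were above in every deficient root library, against 6.79% of all tested sequences whose deficient roots lay wholly higher. All 11 had an unadjusted limma p below 0.05, as did 3756 of all 87081 tested sequences. Their log2 changes ran from 1.24 to 3.29 with a median of 1.53, against 0.00 for all tested sequences, and the adjusted p of the other 10 lay between 0.0902 and 0.657. The most abundant, LAGI01_59558, was at 8.5, 9.4 and 9.0 RPKM in sufficient and at 20.4, 23.4 and 27.6 RPKM in deficient roots, a log2 change of 1.35 ± 0.474 (SE). Here the sufficient libraries nearly coincided and the deficient ones lay more than 2 times above them, yet its adjusted p was 0.657. LAGI01_23220, the next in level, gave 8.0, 8.3 and 8.2 against 19.1, 20.4 and 20.3 RPKM.

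All 19 SQD2 sequences had a positive log2 change in roots, from 0.42 to 2.01 with a median of 1.34. Of them, 16 were above in every deficient library, against 6.79% of all tested sequences. None passed the adjusted threshold with all 12 libraries fitted (lowest limma adjusted p 0.145). Without deficient leaf replicate 3, 1 was called higher, while 347 of all 87081 sequences were called in either direction. With all libraries, an unadjusted limma p below 0.05 was found for 13 of the 19, and for 3756 of all 87081 sequences. The largest change was that of LAGI01_53095, at 2.1, 1.3 and 1.7 RPKM in sufficient and at 13.2, 6.0 and 7.1 RPKM in deficient roots (log2 change 2.01 ± 0.49, SE). The sufficient and deficient libraries did not overlap, with deficient replicate 1 the highest. LAGI01_35670 was at 5.7, 3.5 and 3.7 against 22.8, 13.8 and 14.2 RPKM, and LAGI01_23852 at 5.4, 4.3 and 3.3 against 20.4, 15.1 and 15.6 RPKM. The most abundant SQD2 sequence, LAGI01_18939, differed less, from 14.7, 21.5 and 20.6 to 27.4, 26.9 and 30.7 RPKM, a log2 change of 0.59 ± 0.456 (SE) with an adjusted p of 1.

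**Figure D2:**
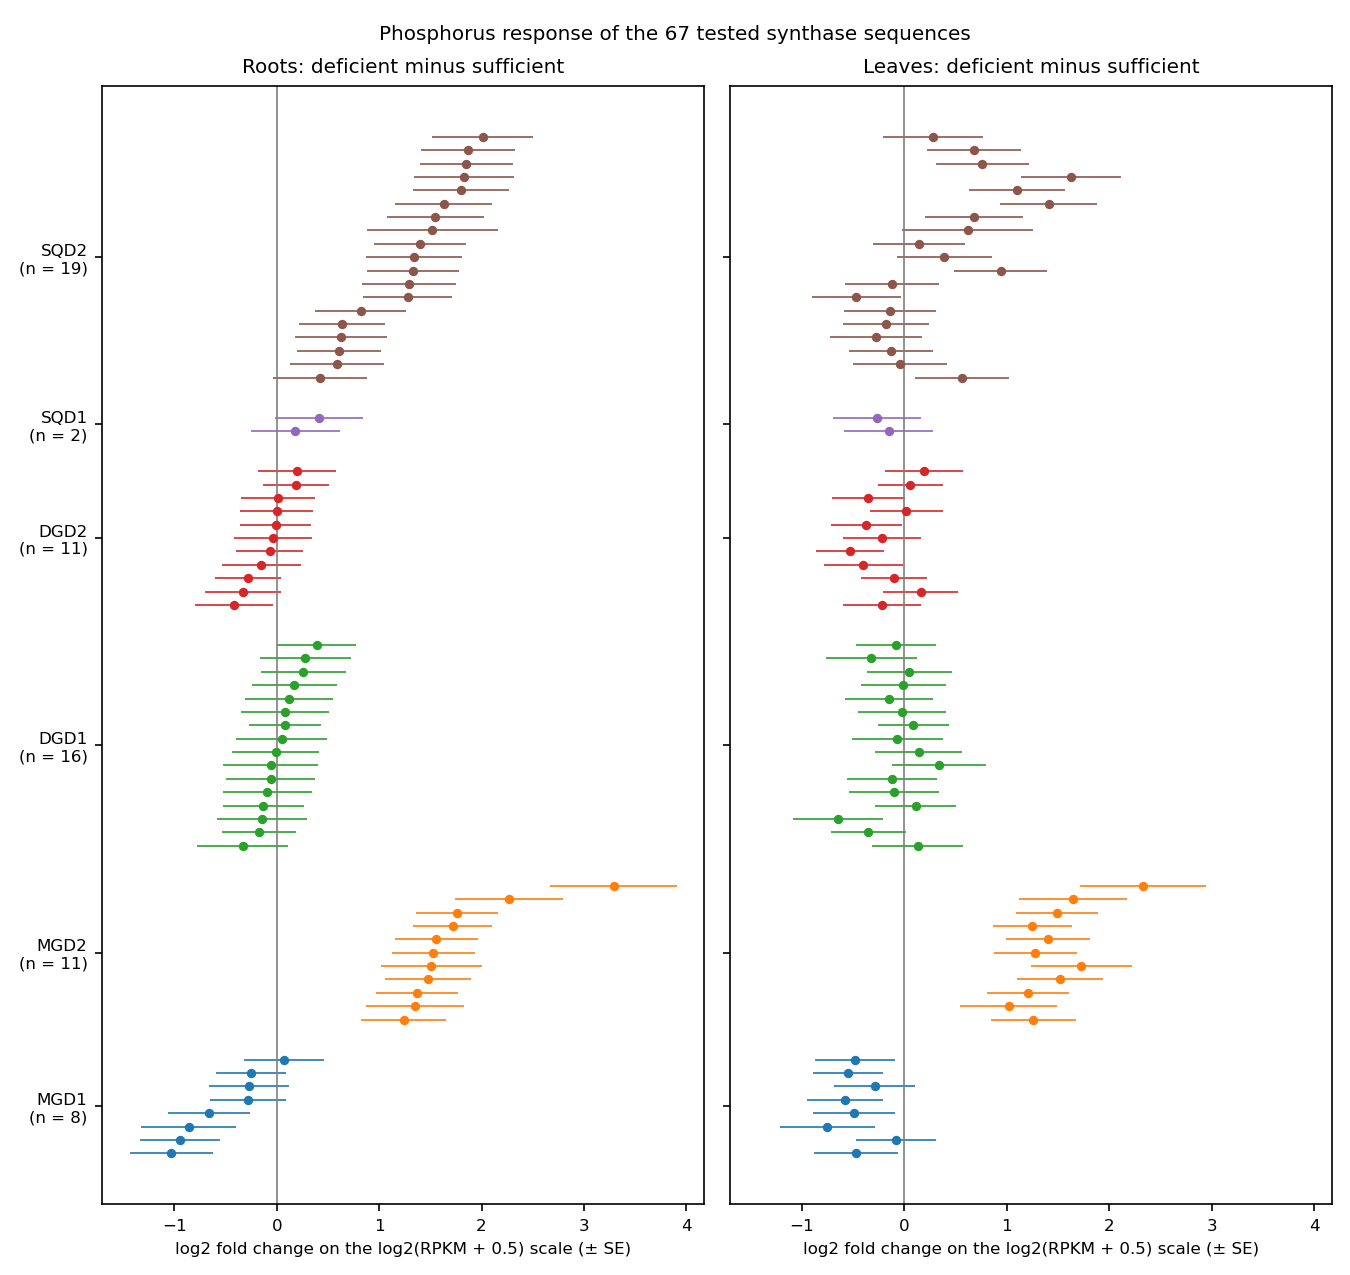
Log2 fold change, deficient minus sufficient, on the log2(RPKM + 0.5) scale (horizontal axis, points with bars of ± SE from limma) for the 67 tested sequences, grouped by gene and in the same order in roots (left) and leaves (right). MGD2 points lie between 1.24 and 3.29 in roots and between 1.02 and 2.33 in leaves, SQD2 points lie above 0 in roots and on both sides of 0 in leaves, and DGD1 and DGD2 points lie around 0.

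In their deviations from the group means, the root libraries of replicate 1 went together (correlation 0.75). Root replicates 2 and 3 were not told apart as pairs. Deficient replicate 2 gave 0.4 with sufficient replicate 2 and 0.47 with sufficient replicate 3. A fit with the replicate number as a block within each tissue called 8 members, all higher, against 0.649% of all sequences. These were 4 of MGD2 and 4 of SQD2. Median-of-ratios scaling also called 8, 2 of MGD2 and 6 of SQD2, against 0.48% of all sequences. With the clock difference as a covariate the median root changes were 1.59 for MGD2 and 1.24 for SQD2, with 2 calls, both of MGD2. The share of all sequences called in that fit is not given, so these calls have no background beside them.

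SQD1, which feeds SQD2 with its substrate, was close between the root groups. LAGI01_23898 was at 8.8, 7.3 and 7.6 RPKM in sufficient and at 11.9, 8.4 and 7.2 RPKM in deficient roots, and the groups overlapped (log2 change 0.18 ± 0.434, SE, adjusted p 1). LAGI01_41019 was at 5.2, 4.2 and 4.6 against 8.0, 5.7 and 5.6 RPKM, with no overlap (0.41 ± 0.43, SE, adjusted p 1).

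MGD1 sequences were lower in deficient than in sufficient roots for 7 of 8, with a median log2 change of -0.47 and a range of -1.03 to 0.07. None passed the test, and 2 had an unadjusted limma p below 0.05, as did 3756 of all 87081 sequences. In deficient roots 2 lay wholly lower, against 4.39% of all tested sequences. These were LAGI01_20375 and LAGI01_48865, of which LAGI01_20375 overlapped after scaling. The former was at 3.8, 7.9 and 5.5 RPKM in sufficient and at 1.2, 3.7 and 3.1 RPKM in deficient roots (-1.03 ± 0.407, SE, adjusted p 0.879), and the latter at 2.0, 3.2 and 1.6 against 0.3, 1.3 and 1.4 RPKM. In both, deficient replicate 1 was the lowest root library.

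The digalactolipid synthases differed little between the root groups, and none of their sequences had an unadjusted p below 0.05. DGD1 changes had a median of 0.02 (-0.33 to 0.39) with 8 positive and 8 negative, and DGD2 changes a median of -0.04 (-0.42 to 0.20). The most abundant DGD1 sequence, LAGI01_44472, was at 2.3, 2.4 and 2.9 against 2.1, 3.3 and 2.8 RPKM. For DGD2, LAGI01_28502 was at 5.8, 6.1 and 6.9 RPKM in sufficient and at 5.9, 6.3 and 6.0 RPKM in deficient roots, a log2 change of -0.04 ± 0.38 (SE). All 11 DGD2 sequences carried the gene ontology term for the cellular response to phosphate starvation, as did the 11 of MGD2, the 2 of SQD1 and 18 of the 19 of SQD2, whereas none of MGD1 or DGD1 did. These terms come with the best protein hit and are not a measurement in lupin.

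In leaves, the MGD2 sequences were again higher under deficiency, and no member passed the test with limma, in a comparison that called 0.0276% of all sequences. At an unadjusted limma p below 0.05 there were 14 of the 67 members, 11 of MGD2 and 3 of the 19 of SQD2. Among all 87081 sequences there were 6754. MGD2 log2 changes ran from 1.02 to 2.33 with a median of 1.40, while the median of all tested sequences was -0.24, a shift that scaling took to -0.03. Of the 11, 10 lay wholly higher in deficient leaves, against 0.722% of all sequences, and after scaling all 11 did, against 5.36%.

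LAGI01_25059 was at 0.5, 2.2 and 0.8 RPKM in sufficient and at 2.6, 27.9 and 4.6 RPKM in deficient leaves, a log2 change of 2.33 ± 0.619 (SE) with an adjusted p of 0.264. The deficient libraries were all above the sufficient ones, by a narrow margin for replicate 1 and a wide one for replicate 2. LAGI01_59558 was at 3.5, 1.9 and 4.1 against 6.5, 14.9 and 2.9 RPKM, and it was the MGD2 sequence whose groups overlapped, through deficient replicate 3. All 11 MGD2 sequences were highest in deficient leaf replicate 2, and the median change was 0.83 without that library, 1.76 without deficient replicate 1 and 1.61 without deficient replicate 3. With the replicate block within each tissue LAGI01_25059 was called in leaves at a limma adjusted p of 0.0356, against 0.291% of all sequences. With scaling added to that block its adjusted p was 0.0512. The pairing behind the block was weak in leaves, with correlations of 0.24, 0.24 and 0.13 between same-numbered libraries. In the barcoded replicates 2 and 3 alone 9 members were called higher, 7 of MGD2 and 2 of SQD2, against 5.99% of all sequences in either direction, and with the clock difference as a covariate the MGD2 median was 1.43 with no call.

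SQD2 was less uniform in leaves. Log2 changes ran from -0.47 to 1.63 with a median of 0.39, 12 positive and 7 negative. In the deposited values 2 of 19 lay wholly higher in deficient leaves, against 0.722% of all sequences, and after scaling 9 of 19 did, against 5.36%. The 2 were LAGI01_85790, at 1.9, 2.4 and 0.7 against 4.0, 12.2 and 3.8 RPKM (log2 change 1.63 ± 0.487, SE, adjusted p 0.328), and LAGI01_87402, at 2.8, 3.0 and 1.9 against 4.6, 18.5 and 4.9 RPKM (1.41 ± 0.473, SE, adjusted p 0.411). In both sequences deficient replicate 2 was highest. The SQD2 median followed the libraries used: it was 0.63 after scaling, 0.92 without deficient replicate 3, -0.10 without deficient replicate 2 and -0.21 with the clock covariate.

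For the remaining genes, every sequence of MGD1, DGD1, DGD2 and SQD1 overlapped between the leaf groups in the deposited values. Only 0.722% of all sequences lay wholly higher there, so the lack of wholly higher sequences does not set these genes apart. The share wholly lower is not given for the deposited leaf values. After scaling 1 of the 8 MGD1 sequences lay wholly lower in deficient leaves, against 6.64% of all sequences. LAGI01_18939 of SQD2 was at 32.6, 45.9 and 40.0 against 47.3, 64.9 and 18.0 RPKM, and LAGI01_23898 of SQD1 at 49.0, 56.6 and 43.0 against 57.9, 66.0 and 22.8 RPKM. In both, deficient replicates 1 and 2 lay above all sufficient libraries and replicate 3 below them. Median log2 changes were -0.48 for MGD1, -0.04 for DGD1, -0.22 for DGD2 and -0.21 for SQD1, against -0.24 for all sequences. After scaling those of DGD1, DGD2 and SQD1 turned positive at 0.21, 0.05 and 0.11, and that of MGD1 was -0.26. Without deficient replicate 3 they were -0.08 for MGD1, 0.49 for DGD1 (14 of 16 positive), 0.19 for DGD2 and 0.27 for SQD1, against 0.06 for all sequences. The size of all 4, and the sign of all but MGD1, thus changed when that library was left out. The DGD1 median also turned positive, at 0.08 (12 of 16 positive), without sufficient replicate 1.

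Whether roots and leaves responded differently was tested as the root change minus the leaf change. No member passed (lowest limma adjusted p 0.721, for LAGI01_84543 of SQD2), in a comparison that called 0.0597% of all sequences, and 3 of the 67 members, all SQD2, had an unadjusted p below 0.05, as did 5160 of all 87081 sequences, which is no larger a share among the members. The SQD2 median difference was 0.89 against 0.27 for all sequences, 0.58 against 0.04 after scaling, and 0.38 against -0.06 without deficient leaf replicate 3. For MGD2 the median difference was 0.25, -0.05 after scaling and -0.07 without that library. LAGI01_84543 had a difference of 1.75 ± 0.615 (SE), from a root change of 1.28 (3.0, 3.9 and 3.5 against 9.8, 7.6 and 10.0 RPKM) and a leaf change of -0.47 (18.8, 32.9 and 39.0 against 21.6, 35.1 and 11.7 RPKM). Its root groups stood clear of each other and its leaf groups overlapped.

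Ratios between genes within a library do not depend on how the libraries are scaled, and were computed from the median RPKM of each gene after the levels were seen, as a description. MGD2 over MGD1, the ratio of both kinds of monogalactolipid synthase, was 1.3, 0.75 and 1.12 in sufficient roots and 12.1, 6.08 and 4.96 in deficient roots. In leaves it was 0.235, 0.254 and 0.241 when sufficient and 0.776, 2.7 and 2.53 when deficient. In each tissue the lowest deficient library lay above the highest sufficient one, deficient leaf replicate 3 included.

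DGD2 over DGD1, the ratio of both digalactolipid synthases, was 1.03, 0.905 and 1.12 against 1.2, 0.955 and 0.8 in roots and 0.41, 0.577 and 0.484 against 0.342, 0.313 and 0.571 in leaves. The groups overlapped in both tissues. SQD2 over SQD1 was 0.4, 0.33 and 0.344 against 0.955, 0.823 and 0.906 in roots and 0.203, 0.198 and 0.19 against 0.206, 0.311 and 0.228 in leaves. The root groups were far apart, while the lowest deficient leaf value, 0.206, was just above the highest sufficient one, 0.203.

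**Figure D3:**
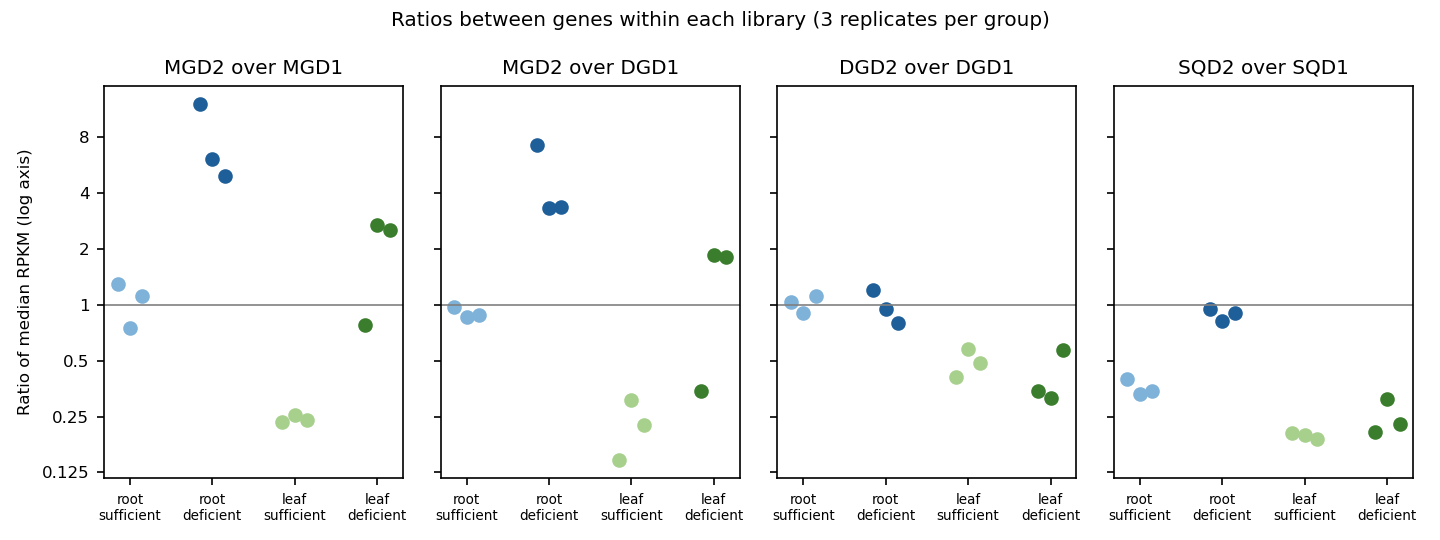
Ratio of the median RPKM of 1 gene's sequences to that of another (vertical axis, log scale) in each of the 12 libraries (points, replicates 1 to 3 from left to right within a group on the horizontal axis). MGD2 over MGD1 and MGD2 over DGD1 are higher in deficient than in sufficient libraries of both tissues, DGD2 over DGD1 overlaps between supplies, and SQD2 over SQD1 separates the supplies mainly in roots.

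Between tissues the genes divided. At sufficient phosphorus 22 of the 67 members differed between roots and leaves, 8 higher in roots and 14 higher in leaves, against 42.0% of all sequences called (24.1% higher and 17.8% lower in roots), so the share of members called was below that of all sequences. After scaling the split was 8 higher in roots and 26 higher in leaves, with 51.0% of all sequences called, and 7 of the 26 were DGD1 sequences. Before scaling, those higher in roots were 5 MGD2 sequences, 2 of MGD1 and 1 of DGD2. Those higher in leaves were 8 of SQD2, 3 of MGD1, both of SQD1 and 1 of DGD1. All 16 DGD1 sequences had a negative root minus leaf difference at both supplies. LAGI01_23898 of SQD1, at 8.8, 7.3 and 7.6 RPKM in sufficient roots and 49.0, 56.6 and 43.0 RPKM in sufficient leaves, had a root minus leaf log2 difference of -2.57 ± 0.434 (SE, limma adjusted p 1.32e-04). LAGI01_53095 of SQD2 had the largest difference, -3.37 ± 0.49 (SE, adjusted p 2.93e-05), with 22.3, 24.3 and 19.8 RPKM in sufficient leaves. The sufficient leaf libraries of both lay far above the sufficient root libraries.

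At deficient phosphorus 18 members differed, 7 higher in roots, all MGD2, and 11 higher in leaves, 7 of SQD2, 2 of MGD1 and both of SQD1, against 42.2% of all sequences (29.0% higher and 13.2% lower in roots). The split was 3 higher in roots and 32 higher in leaves after scaling (48.7% of all sequences called) and again without deficient leaf replicate 3 (42.1%). DGD1 made up 14 of the 32 after scaling and 15 of the 32 without that library, though no DGD1 sequence was among the 18. LAGI01_59558 of MGD2 was higher in roots at both supplies, by 1.42 ± 0.474 (SE, adjusted p 0.0229) when sufficient and 1.75 ± 0.474 (SE, adjusted p 0.0068) when deficient. The called sequence LAGI01_25059 differed little between tissues, at -0.35 ± 0.619 and 0.60 ± 0.619 (SE, adjusted p 0.686 and 0.462).

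MGD1 divided within itself. LAGI01_20375 and LAGI01_48865 were higher in sufficient roots than in sufficient leaves, with log2 differences of 1.21 (adjusted p 0.0239) and 1.36 (adjusted p 0.00943). LAGI01_25844 was at 0.5, 0.4 and 0.4 RPKM in sufficient roots and at 3.4, 3.6 and 3.6 RPKM in sufficient leaves, a difference of -2.11, and LAGI01_22746 and LAGI01_23295 differed by -1.64 and -1.10. The 2 root-higher sequences were also the 2 that lay wholly lower in deficient roots in the deposited values, and after scaling only LAGI01_48865 did. Both comparisons use the same sufficient root libraries and are not independent.

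No SQD2 sequence was called higher in roots, and 17 of 19 had a lower value in sufficient roots than in sufficient leaves (19 of 19 after scaling). The 8 sequences called higher in sufficient leaves had root minus leaf differences of -3.37 to -1.59, root phosphorus changes of 0.61 to 2.01 (median 1.05) and leaf phosphorus changes of -0.47 to 0.28 (median -0.14). The other 11 had root minus leaf differences of -1.05 to 0.12, root phosphorus changes of 0.42 to 1.87 (median 1.55) and leaf phosphorus changes of -0.04 to 1.63 (median 0.68). In roots 7 of the 8 and 9 of the 11 lay wholly higher under deficiency (6.79% of all sequences), and after scaling 8 and 9 did (7.2%). In leaves 0 of the 8 and 2 of the 11 did (0.722% of all sequences), and after scaling 1 and 8 did (5.36%). The sufficient libraries enter the split as well as both changes, so these values are a description without a test.

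**Figure D4:**
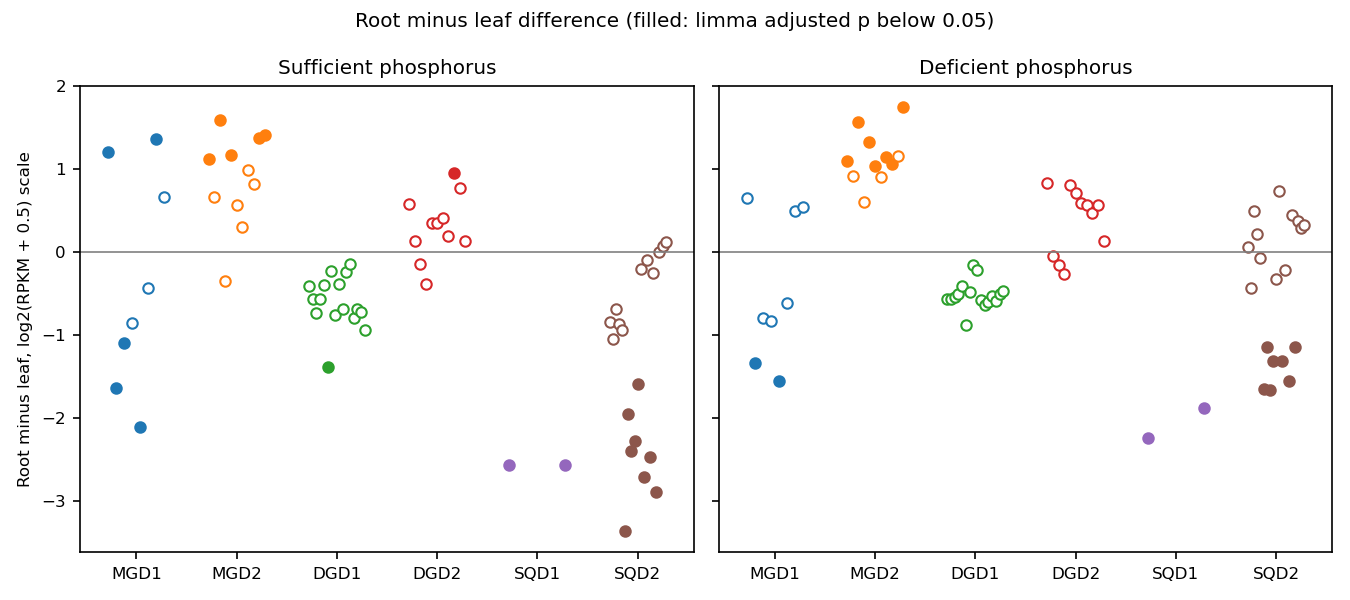
Root minus leaf difference on the log2(RPKM + 0.5) scale (vertical axis) of each tested sequence by gene (horizontal axis, points spread sideways for legibility) at sufficient (left) and deficient phosphorus (right), filled where the limma adjusted p was below 0.05. SQD1 and a group of SQD2 points lie well below 0, all DGD1 points lie below 0, MGD2 points lie mostly above 0, and MGD1 points lie on both sides.

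Other steps of membrane lipid metabolism were described by 4 lists. Of 51 tested phospholipid breakdown sequences, 6 rose in deficient roots and none fell, against 0.245% of all sequences called higher, and the median change of the list was -0.10. Those 6 were 4 of the glycerophosphodiester phosphodiesterase family, which splits the head group from deacylated phospholipids, SRG3, another glycerophosphodiester phosphodiesterase, and PLDP1, phospholipase D zeta, which cleaves phospholipids to phosphatidic acid. LAGI01_48446 of the phosphodiesterase family was at 2.6, 2.6 and 3.1 RPKM in sufficient and at 35.0, 19.5 and 19.5 RPKM in deficient roots (log2 change 2.89 ± 0.468, SE, limma adjusted p 0.00867). SRG3 (LAGI01_75880) was at 0.0, 0.3 and 0.3 against 3.4, 2.9 and 3.5 RPKM (2.46 ± 0.383, SE, adjusted p 0.00637), and PLDP1 (LAGI01_3168) changed by 2.42 (adjusted p 0.0278). SRG3 reached 1 RPKM only in the 3 deficient root libraries, so it passed the filter only through the group where it was high. Its place among the 6 is therefore not independent of the filter.

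None of the 43 sequences for UDP-sugar supply, the 82 for lipid transfer and plastid partners or the 45 for phospholipid synthesis was called in roots, and their median changes were 0.17, -0.07 and 0.06. For the supply of UDP-galactose, LAGI01_78946, a UGE5 epimerase, was at 1.8, 1.0 and 1.6 against 4.6, 2.7 and 3.5 RPKM (log2 change 1.06 ± 0.349, SE, adjusted p 0.539), and these groups did not overlap. The plastid fatty acid desaturase FAD7 (LAGI01_62052) was at 43.3, 64.5 and 49.7 against 5.3, 24.8 and 21.1 RPKM (-1.83 ± 0.517, SE, adjusted p 0.296), again with no overlap. The desaturase FAD8 (LAGI01_33365) had a change of -1.53 (adjusted p 0.341). In leaves no sequence of the 4 lists was called, and the medians were -0.11 for breakdown, -0.08 for UDP-sugar supply, -0.45 for transfer and plastid partners and -0.28 for phospholipid synthesis.

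Sequences with a profile most like the most abundant member of each gene were sought by Pearson correlation over the 12 libraries. The candidates were 21062 sequences outside the members, with an informative description and a mean of at least 5 RPKM. Other synthase sequences, and sequences without an informative description, could therefore not be returned. The 12 libraries fall into 2 tissues, and a sequence with the same tissue difference scores high whatever else it does. The values are a description. For MGD1 (LAGI01_20375) the nearest was FAD8 (LAGI01_34517), r = 0.981, followed by another FAD8 sequence (LAGI01_31953), r = 0.973. For MGD2 (LAGI01_59558) the nearest were an ADK sequence (LAGI01_46422, r = 0.951) and the autophagy gene ATG8H (LAGI01_63576, r = 0.947). SQD1 (LAGI01_23898) was nearest to 2 GA3 sequences (LAGI01_29107 and LAGI01_23217, r = 0.995 each), and SQD2 (LAGI01_18939) to the ferritin gene ATFER4 (LAGI01_74201, r = 0.942). For DGD1 (LAGI01_44472) it was LPAT2 (LAGI01_6421, r = 0.915), an acyltransferase of phospholipid synthesis, and for DGD2 (LAGI01_28502) MEE32 (LAGI01_6781, r = 0.978).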

How the data were processed

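Poly-A RNA of 12 libraries was sequenced for 76 cycles, per the labels' protocols. Each replicate 1 library had its own lane, while lanes of replicates 2 and 3 held 2 barcoded libraries. The submitters' processing notes name Bowtie, without version or role. How the authors counted reads, and divided them between near-identical sequences, is not given in the sources used here. Because the deposited table has 1 decimal and sums per library of 802814.9 to 1178058.3, its values were read as RPKM, a unit that neither labels nor files name. Library depth is unknown. The table has 2 unused empty columns. No nucleotide sequence or genome position was used.

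Values were transformed to log2(RPKM + 0.5), so fold changes of low sequences are understated. Limma 3.58.1 (in R 4.3.3) modelled 4 group means over the 12 libraries, letting the variance follow intensity, with Benjamini-Hochberg adjustment over 87081 sequences, those at 1 RPKM or more in 3 libraries. Sequences with an adjusted p below 0.05 were called. The count-based test planned for counts was not run. The procedure was checked on simulated data with independent noise and no difference between tissues. Those data held no shared deviation of replicates and no library like deficient leaf replicate 3, so the check does not cover these. Tables and figures used Python 3.11.15, numpy 2.4.6, pandas 2.3.3 and matplotlib 3.10.9.

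Members, gene lists and the naming rule were chosen with earlier results of these data known. Values in every library were to be given for the most abundant sequence of each gene and for every member called in a phosphorus response, and for each pathway list the 2 sequences with the smallest root p could be named. Other named sequences were chosen after their values were seen. Same-numbered libraries deviated together from their group means (correlations of 0.75, 0.40 and 0.64 in roots and 0.24, 0.24 and 0.13 in leaves), so the replicate block was read as a pairing taken from the data. In roots, replicates 2 and 3 were not told apart as pairs, since crossing them gave 0.47 and 0.44. In leaves, deficient replicate 3 was not told apart either, at 0.13 with sufficient replicate 3 and 0.11 with sufficient replicate 2. Alternatives covered the pseudocount, filter, scaling, trend, samples fitted, block, sequencing format, summing of copies, clock difference and each library left out; 2 combinations with median-of-ratios scaling were chosen after seeing the data.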

Additional observations from a re-analysis of the deposited data

How the results depend on the processing

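Of 125 alternative values for the 5 counts of called members, 93 stayed within 1.5 times of the reported count and 32 moved. The root count of 1 became 0 without a filter, 8 with median-of-ratios scaling, 0 when only the groups compared were fitted, 2 with the clock covariate and 0 of 6 when sequences were summed per description. It ran from 0 to 8 when each library was left out, with 8 without deficient leaf replicate 2. Without deficient leaf replicate 3 it stayed at 1, but the member called was of SQD2 instead of MGD2. The leaf count of 0 became 9 in barcoded libraries only and ran from 0 to 1 when each library was left out. The difference of responses had 0 calls in every alternative run. Root minus leaf at sufficient phosphorus went from 22 to 34 with scaling, 34 with only the groups compared and 3 of 6 when summed, and ran from 15 to 32 with each library left out. At deficient phosphorus it went from 18 to 35 with scaling, 9 with only the groups compared, 11 in barcoded libraries, 9 with the clock covariate and 2 of 6 when summed, and ran from 9 to 35 with each library left out. The cause of these shifts was not tested, apart from the fewer features and libraries that some alternatives hold by construction. Shares of all sequences called are not set beside these counts, so the shifts are not read as particular to the synthases.

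With the replicate block within each tissue, 8 members were called in roots and 1 in leaves, and none in the difference; with the block over all libraries the counts were 1 and 0. Scaling with the block within each tissue, chosen after seeing the data, gave 13 in roots and 0 in leaves. Scaling without deficient leaf replicate 3, also chosen then, gave 5 in roots and 34 and 35 between tissues. No share of all sequences called is given for the block over all libraries or for these combinations.

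Of 362 values of named members, 26 turned sign, all of changes near 0. The summed values among them are those of the whole gene. For SQD2 LAGI01_18939 in leaves (-0.04) the value was 0.28 with scaling and 0.14 with the clock covariate. The summed value set against it, 0.18, was that of all SQD2 sequences together. For LAGI01_18939 the value was 0.38 with scaling without deficient leaf replicate 3 and 0.28 with scaling and the block. For SQD1 LAGI01_23898 in leaves (-0.15) it was 0.17, 0.21 with that library out and 0.17 with the block. For DGD2 LAGI01_28502 in leaves (-0.22) it was 0.05, 0.10 and 0.05 in the same order. For DGD1 LAGI01_44472 it was -0.02 in roots with the clock covariate (0.08), and in leaves (-0.02) 0.00 with a pseudocount of 1, 0.24 with scaling, 0.44 with that library out and 0.24 with the block. With each library left out, the ranges were -0.41 to 0.50 for LAGI01_18939, -0.43 to 0.33 for LAGI01_23898, -0.49 to 0.21 for LAGI01_28502 and -0.34 to 0.55 for LAGI01_44472 in leaves, and -0.02 to 0.33 for LAGI01_23898, -0.09 to 0.03 for LAGI01_28502 and -0.05 to 0.23 for LAGI01_44472 in roots. The unknown depth gives no limit for low values.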
